A study of Homo sapiens with 16 samples.

Results

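The genes described here are 10 components of the spindle assembly checkpoint and of the anaphase promoting complex or cyclosome (APC/C): BUB1, BUB1B, BUB3, TTK, MAD1L1, MAD2L1, CDC20, FZR1, UBE2C and UBE2S. They were taken by symbol from a table of 58787 Ensembl gene identifiers, which held all 10. 9 of them were among the 14193 genes with enough reads to test, and MAD1L1 was not. RNA was measured in IMR32, an established human neuroblastoma cell line with amplified MYCN, with 48 h as the time given in the column names of the count table. 3 small interfering RNAs (siRNAs) against TPX2, called si45, si46 and si47, were set against a non-targeting siRNA, siNTC. Each group had 4 replicates, described by the submitters as biological, with no word on what separated them, so the p-values measure only the spread between these 16 libraries. All groups were the same unedited line, and the siRNAs against TPX2 were labelled as knockdowns with no further allele or agent. TPX2 is a spindle assembly factor that also activates the kinase AURKA.

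The spindle checkpoint holds back anaphase while any kinetochore lacks microtubules. The kinases TTK and BUB1 act at such kinetochores, MAD1L1 and MAD2L1 are recruited there, and MAD2L1, BUB1B, BUB3 and CDC20 form the mitotic checkpoint complex that blocks the APC/C. Once the block is lifted, the APC/C with its coactivator CDC20, and later with FZR1 (also called CDH1), attaches ubiquitin to securin, cyclins and other proteins, with UBE2C starting and UBE2S extending the chains.

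The library kit reads the 3' ends of polyadenylated transcripts, so a read stands for a transcript whatever its length. Total counts ran from 5318159 to 7864343 per library. Levels are given as CPM, counts scaled to library size. TPX2, the knockdown target, had a mean of 327 ± 27.1 CPM (SD, n = 4) with siNTC, 91.6 ± 19.8 with si45, 81.7 ± 14.3 with si46 and 71.5 ± 3.37 with si47, and 12 of 12 knockdown libraries lay below every siNTC library. 8 marker genes of adrenergic neuroblastoma summed to between 5100 and 6436 CPM in each library, although TH, the enzyme of catecholamine synthesis among them, had only 8 to 29 counts. 5 fibroblast markers summed to between 19.0 and 65.2 CPM, nearly all of it COL1A1. 4 leukocyte markers summed to at most 3.70 CPM, with CD3E at 0, and 3 endothelial markers to at most 1.51 CPM.

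Many genes transcribed in G2 and mitosis carry a cell cycle genes homology region near their start, a short element bound by the MuvB complexes, often with a CCAAT box upstream. Promoters of RefSeq genes on GRCh38.p14, from 250 bases before to 50 bases after the start, were searched on both strands for TTTGAA and TTCGAA, the usual core letters of that region, and for CCAAT. The promoter set held 7 of the 10 genes, with 8 promoters. BUB3, TTK and UBE2C had no entry in it, so their promoters were not searched. The stretches of 30 bases around the matches that read along the gene are shown because these genes share the letters, with TTTGAA or TTCGAA in capitals.
CDC20 chr1:43358904-43358933 plus strand: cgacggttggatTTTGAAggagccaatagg
MAD2L1 chr4:120066807-120066836 minus strand: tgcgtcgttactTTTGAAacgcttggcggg
BUB1B chr15:40161034-40161063 plus strand: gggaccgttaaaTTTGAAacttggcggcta
BUB1 chr2:110678045-110678074 minus strand: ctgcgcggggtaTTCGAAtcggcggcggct
FZR1 chr19:3506073-3506102 plus strand: ttcctgtattgaTTTGAAtcgcgggagacg

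The first capital lay 65 bases before the start in CDC20, 23 before it in BUB1B and 226 before it in FZR1, and 2 and 25 bases after it in BUB1 and MAD2L1. CDC20 held a TTTGAA also on the opposite strand, 178 bases before the start. TTTGAA occurred in 15.2% of all 35116 promoters of this length, TTCGAA in 1.45% and CCAAT in 34.6%. CCAAT occurred in the promoters of CDC20, MAD2L1, BUB1 and UBE2S. The second promoter of FZR1 and the promoter of MAD1L1 held no copy of the 3 motifs. The part of these motifs in the changes of the genes was not tested.

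With the 3 siRNAs averaged, UBE2C and BUB3 fell and none of the other 7 tested genes passed the test. UBE2C, the E2 enzyme that starts ubiquitin chains, was lower by 0.33 on the log2 scale, and BUB3, the checkpoint scaffold that carries BUB1 and BUB1B to kinetochores, by 0.22. BUB1, BUB1B, MAD2L1, TTK and FZR1 had log2 fold changes from -0.28 to -0.21, CDC20 one of -0.03 and UBE2S one of 0.57. The test was edgeR's quasi-likelihood test with Benjamini-Hochberg adjustment over all tested genes and a threshold of 0.05. 2 of 9 genes were lower and 0 were higher, against 3.53% lower and 7.14% changed in either direction among all tested genes. At an unadjusted p under 0.05, 6 were lower and 1, UBE2S, was higher, against 10.3% lower and 10.1% higher among all genes, and DESeq2 also called 2. 8 of 9 fold changes were below 0, where 50.2% of all genes were. The median of the 9 was -0.22, beside -0.00113 over all genes. All 9 values rest on the same 4 control libraries. Leaving out 1 library moved TTK between -0.37 and -0.14, BUB1B between -0.28 and -0.12 and BUB1 between -0.27 and -0.14. Both ends of each range came from leaving out a siNTC library. In bulk RNA, fewer cells in a cell cycle phase and less RNA per cell cannot be told apart.

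**Figure D1:**
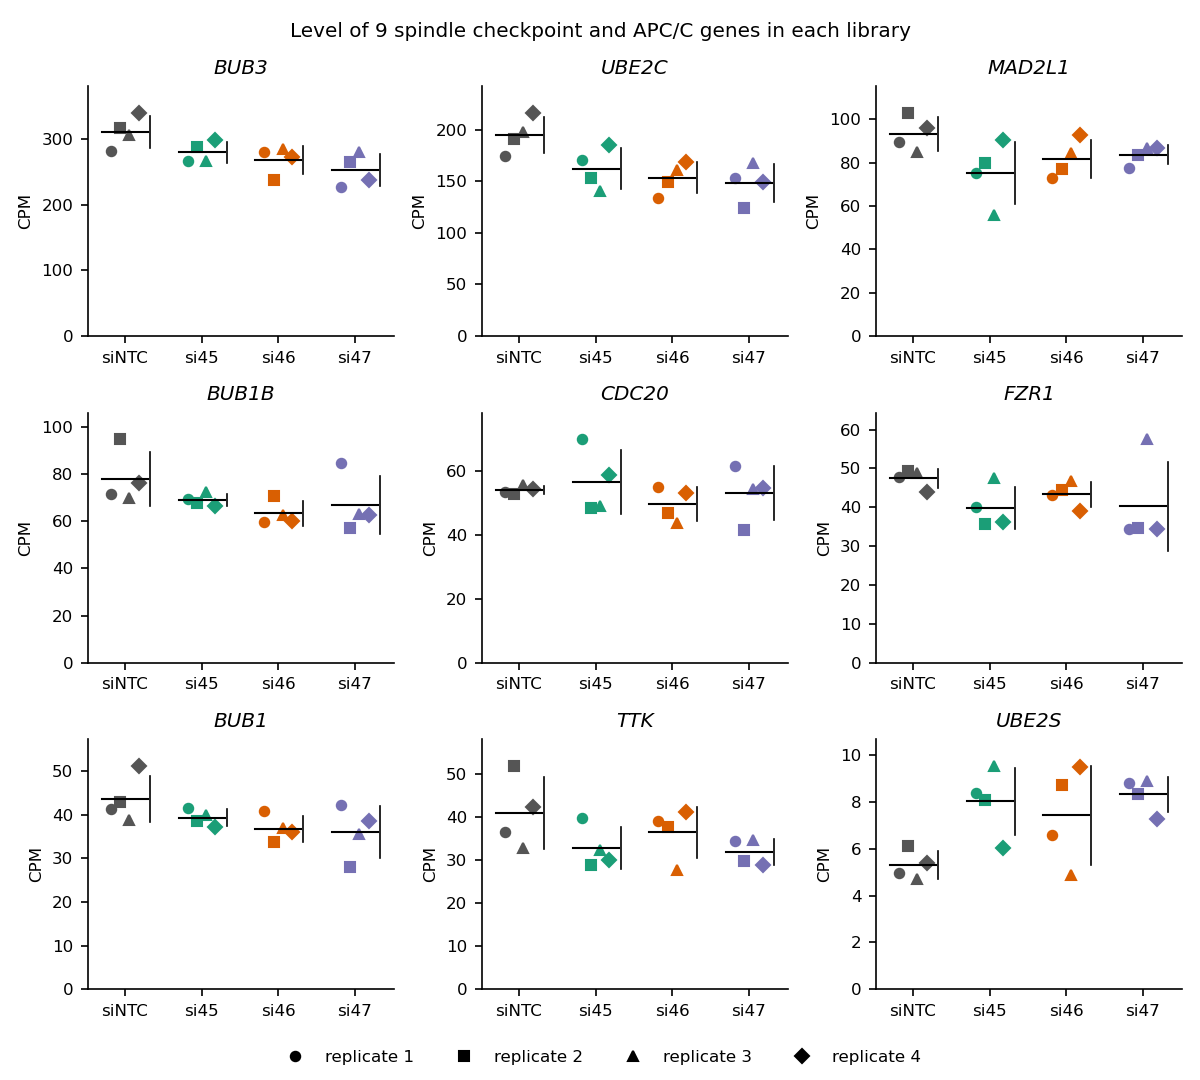
CPM of the 9 tested genes in each of the 16 libraries (vertical axes from 0, one scale per gene), with marker shape giving the replicate number, bars the group mean and thin lines 1 SD (n = 4). UBE2C lay below every siNTC library in 11 of 12 knockdown libraries and BUB3 in 9 of 12, while UBE2S lay above them in 10 of 12.

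The kinases and their partners at the kinetochore came first. TTK (ENSG00000112742, chromosome 6, 80003887 to 80042527, plus strand, GENCODE v29 on GRCh38), the MPS1 kinase that starts checkpoint signalling, ranged from 32.9 to 51.9 CPM in siNTC libraries, 28.9 to 39.9 with si45, 27.8 to 41.2 with si46 and 28.8 to 34.6 with si47. The siNTC libraries differed among themselves as widely as the groups did, and 6 of 12 knockdown libraries lay below all of them. Averaged over the 3 siRNAs its log2 fold change came to -0.28 (SE 0.119, edgeR adjusted p = 0.155).

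BUB1 (ENSG00000169679, chromosome 2, 110637698 to 110678114, minus strand), the kinase that phosphorylates histone H2A at centromeres, ranged from 38.8 to 51.2 CPM in siNTC and from 27.9 to 42.1 CPM over the 12 knockdown libraries. Every group overlapped siNTC, and 8 of 12 knockdown libraries lay below it. Averaged over the siRNAs, the log2 fold change came to -0.22 (SE 0.104, edgeR adjusted p = 0.219).

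BUB1B (ENSG00000156970, chromosome 15, 40161023 to 40221136, plus strand) encodes BUBR1, which binds CDC20 in the checkpoint complex. It stood at 71.5, 94.8, 70.0 and 76.2 CPM in the siNTC libraries, 69.6, 67.6, 72.6 and 66.6 in those of si45, 59.9, 70.9, 62.6 and 60.0 in those of si46, and 84.9, 57.2, 63.2 and 62.5 in those of si47. siNTC replicate 2 and si47 replicate 1 were the high libraries, and 9 of 12 knockdown libraries lay below all controls. The log2 fold change averaged over the siRNAs came to -0.23 (SE 0.0937, edgeR adjusted p = 0.131). The readthrough gene BUB1B-PAK6 overlaps the last 1000 bases of BUB1B on the same strand, and had 0 counts in every library.

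BUB3 (ENSG00000154473, chromosome 10, 123154277 to 123170467, plus strand) had 1306 to 2213 counts per library. It stood at 282, 317, 305 and 340 CPM in the siNTC libraries, 266, 288, 266 and 298 in those of si45, 280, 238, 284 and 272 in those of si46, and 227, 265, 280 and 238 in those of si47. All 4 si47 libraries lay below all 4 siNTC libraries, while si45 and si46 overlapped them. Group means were 311 ± 24.2 CPM (SD, n = 4) in siNTC and 89.9%, 86.4% and 81.2% of that in si45, si46 and si47. BUB3 fell under si47 by 0.30 (SE 0.0863, edgeR adjusted p = 0.0213). Under si45 (-0.15) and si46 (-0.21) it did not pass the threshold (edgeR adjusted p = 0.521 and 0.211).

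For the mean of the 3 siRNAs, BUB3 had a log2 fold change of -0.22 (SE 0.0695, edgeR adjusted p = 0.0454). This call was close to the threshold: it was lost with upper-quartile scaling (adjusted p = 0.0502), without a low-count filter (0.0587), with at least 10 counts in every library (0.0535), and without any 1 of siNTC replicates 2, 3 and 4, si45 replicates 1 and 2, si46 replicates 2 and 4, and si47 replicates 1 and 4 (edgeR adjusted p = 0.0559 to 0.210). The si47 call was lost without siNTC replicate 2 or 4 or si47 replicate 1 or 4 (edgeR adjusted p = 0.0573 to 0.109).

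Of the MAD proteins, MAD1L1 (ENSG00000002822, chromosome 7, 1815793 to 2233243, minus strand), the kinetochore anchor of MAD2L1, was nearly unread. It had 7 counts in all 16 libraries together: 1 in siNTC replicate 4, 1 and 2 in si45 replicates 2 and 3, 3 in si47 replicate 4, and 0 in the other 12. A count of 0 allows up to 3 counts in a library, so no difference was detectable at this depth. So few counts do not show that the RNA was absent, as strand, counting mode and the handling of multi-mapped reads are not given. The annotation gives MAD1L1 17 distinct 3' ends.

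MAD2L1 (ENSG00000164109, chromosome 4, 120055608 to 120067074, minus strand), which changes shape at kinetochores to capture CDC20, stood at 89.5, 103, 85.1 and 95.9 CPM in the siNTC libraries, 75.3, 79.8, 56.0 and 90.4 in those of si45, 72.8, 76.9, 84.5 and 93.0 in those of si46, and 77.6, 83.6, 86.7 and 87.0 in those of si47. si45 replicate 3 was the lowest library, 8 of 12 knockdown libraries lay below all controls, and every group overlapped siNTC. The log2 fold changes were -0.31 under si45 (SE 0.113, edgeR adjusted p = 0.225), -0.19 under si46, -0.16 under si47 and -0.22 for the mean (SE 0.0910, edgeR adjusted p = 0.147). With the replicate number as a block, both the si45 value (-0.32, edgeR adjusted p = 0.0475) and the mean (-0.22, edgeR adjusted p = 0.0491) passed.

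The coactivators of the APC/C were CDC20 and FZR1. CDC20 (ENSG00000117399, chromosome 1, 43358955 to 43363203, plus strand), the target of the checkpoint and the activator of anaphase, stood at 53.6, 53.0, 55.8 and 54.5 CPM in the siNTC libraries, 70.0, 48.6, 49.1 and 58.8 in those of si45, 55.1, 46.9, 43.8 and 53.1 in those of si46, and 61.8, 41.5, 54.6 and 54.9 in those of si47. The controls lay between 53.0 and 55.8 CPM, and the knockdown libraries fell on both sides of them, 5 below all controls and 3 above. The log2 fold changes were 0.06, -0.12 and -0.03 under si45, si46 and si47. For the mean of the 3 siRNAs it was -0.03, with a 95% interval from -0.24 to 0.18 (edgeR adjusted p = 0.918).

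CDC20P1, a processed pseudogene of CDC20 on chromosome 9, had 188 to 283 counts per library beside 229 to 451 for CDC20. It held 33.3% to 47.5% of the reads assigned to either gene, and how reads that match both were assigned is not stated. Its mean log2 fold change was -0.09 (edgeR adjusted p = 0.685). With the counts of both added together, the si45 value of CDC20 turned from 0.06 to -0.00372, and no comparison of CDC20 passed.

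FZR1 (ENSG00000105325, chromosome 19, 3506273 to 3538330, plus strand), the coactivator of late mitosis and G1, stood at 47.8, 49.3, 48.8 and 43.9 CPM in the siNTC libraries, 40.1, 35.6, 47.5 and 36.3 in those of si45, 43.0, 44.6, 46.6 and 39.1 in those of si46, and 34.4, 34.7, 57.5 and 34.4 in those of si47. Replicate 3 was the highest library of each knockdown group, and in si47 it stood above every control while the other 3 libraries lay between 34.4 and 34.7 CPM. TPX2 was also highest in replicate 3 of each knockdown group, with 121 CPM in si45, 93.8 in si46 and 76.3 in si47. The part of the remaining TPX2 in the FZR1 values was not tested.

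FZR1 had log2 fold changes of -0.25, -0.13 and -0.24 under si45, si46 and si47 and -0.21 for the mean (SE 0.114, edgeR adjusted p = 0.309). Without si47 replicate 3 the si47 value was -0.46 and passed (edgeR adjusted p = 0.0160). Leaving out replicate 3 of all 4 groups, an alternative chosen after seeing these values, gave -0.45 for FZR1 (edgeR adjusted p = 0.0257) and -0.49 for TTK (edgeR adjusted p = 0.0379) under si47, so that 4 of 9 genes passed there in place of 2. FZR1 overlaps MFSD12 on the opposite strand at its 3' end. MFSD12 had 484 to 958 counts per library and a mean log2 fold change of -0.06 (edgeR adjusted p = 0.745), and whether reads were counted by strand is not given in the sources used here.

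The ratio of CDC20 to FZR1 counts needs no scaling between libraries. It averaged 1.15 ± 0.0697 (SD, n = 4) with siNTC, 1.44 ± 0.316 with si45, 1.16 ± 0.195 with si46 and 1.38 ± 0.381 with si47. In the knockdown groups it ranged from 0.939 to 1.79 and was lowest in replicate 3 of each, so each group spread to both sides of the controls, which lay between 1.08 and 1.24.

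**Figure D2:**
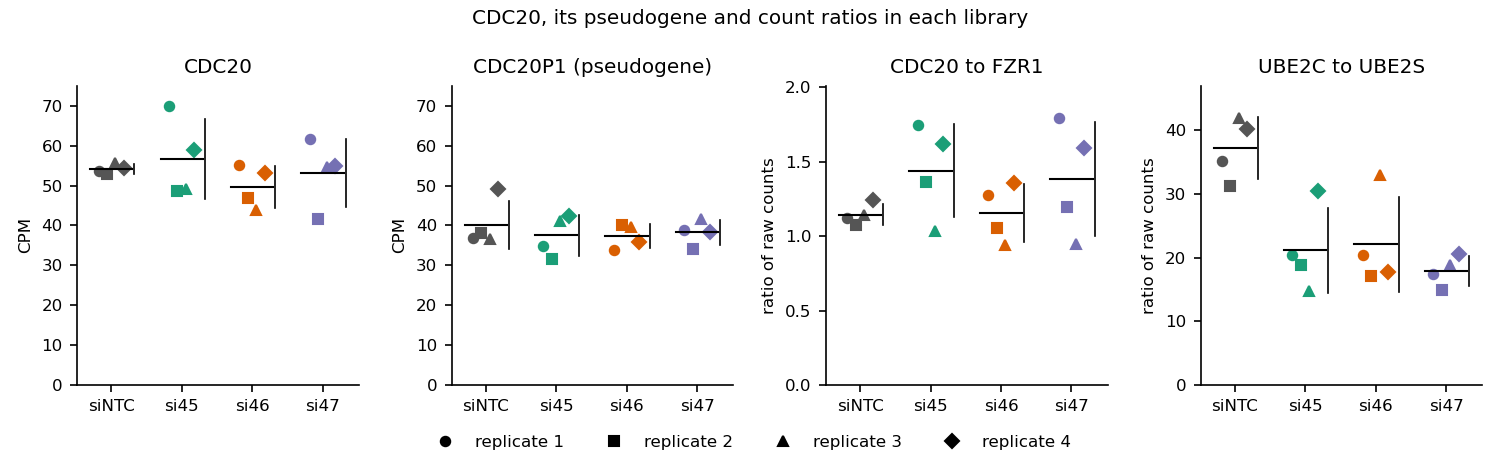
CPM of CDC20 and of its pseudogene CDC20P1, and the count ratios of CDC20 to FZR1 and of UBE2C to UBE2S (vertical axes from 0), in each library, with bars for group means, thin lines for 1 SD (n = 4) and marker shapes for replicate numbers. The mean ratio of UBE2C to UBE2S was 37.1 in siNTC and 17.9 to 22.1 in the knockdown groups. It rests on only 25 to 56 UBE2S counts per library, and si46 replicate 3, at 33, lay inside the control range. CDC20 and its pseudogene overlapped siNTC in every group.

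The E2 enzymes were UBE2C and UBE2S. UBE2C (ENSG00000175063, chromosome 20, 45812576 to 45816957, plus strand) stood at 175, 191, 198 and 217 CPM in the siNTC libraries, 171, 153, 140 and 185 in those of si45, 134, 150, 161 and 169 in those of si46, and 154, 124, 167 and 149 in those of si47. si45 replicate 4 was the only knockdown library inside the control range, and all libraries of si46 and of si47 lay below all controls. Group means were 195 ± 17.4 CPM (SD, n = 4) in siNTC and 83.2%, 78.6% and 76.2% of that in si45, si46 and si47. From si45 to si47 the groups were in the order of their TPX2 levels, but neighbours in this order differed by less than their SDs, and no pair of siRNAs differed in the test (edgeR adjusted p = 0.706 to 1).

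UBE2C fell under si46 by 0.35 (SE 0.1002, edgeR adjusted p = 0.0448), under si47 by 0.39 (SE 0.1003, edgeR adjusted p = 0.00910) and in the mean by 0.33 (SE 0.0803, edgeR adjusted p = 0.00695). Under si45 it was at -0.26, short of the threshold (edgeR adjusted p = 0.248). The mean call was lost without siNTC replicate 4, the highest control (-0.28, edgeR adjusted p = 0.0674), and the si47 call without siNTC replicate 4 or si47 replicate 2 (edgeR adjusted p = 0.0515 and 0.0611). The si46 call was lost with at least 10 counts in every library (adjusted p = 0.0570) and without any 1 of 9 libraries, namely siNTC replicates 2, 3 and 4, si45 replicate 1, all 4 of si46 and si47 replicate 1 (edgeR adjusted p = 0.0517 to 0.186).

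UBE2S (ENSG00000108106, chromosome 19, 55399745 to 55407777, minus strand), which extends chains through lysine 11 of ubiquitin, had only 25 to 56 counts per library. It stood at 4.97, 6.10, 4.73 and 5.38 CPM in the siNTC libraries, 8.38, 8.10, 9.54 and 6.05 in those of si45, 6.58, 8.73, 4.88 and 9.50 in those of si46, and 8.80, 8.35, 8.90 and 7.28 in those of si47. All si47 libraries lay above all controls, and si45 replicate 4 and si46 replicate 3 were the only knockdown libraries within the control range. The log2 fold changes were 0.60, 0.48 and 0.65 under si45, si46 and si47 and 0.57 for the mean, with a 95% interval of 0.14 to 1.01 (SE 0.215, edgeR adjusted p = 0.104). None of these passed over all genes.

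Reads near UBE2S can belong to other genes. Its last 1000 bases overlap RPL28, a ribosomal protein gene on the opposite strand with 1920 to 2829 counts per library, and RPL28 was itself higher under si47 (log2 fold change 0.34, edgeR adjusted p = 0.0107) and at 0.21 for the mean (edgeR adjusted p = 0.0686). The pseudogene UBE2SP2 had 2 to 18 counts per library, with 23 in all in siNTC and 47 in si47 (log2 fold change 0.99, edgeR adjusted p = 0.332). With the counts of UBE2SP1 and UBE2SP2 added, the si47 value was 0.70 and passed (edgeR adjusted p = 0.0449), beside 0.65 for UBE2S alone. That sum takes in the pseudogene's own rise. The part of RPL28 reads in the UBE2S counts was not tested.

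The count ratio of UBE2C to UBE2S averaged 37.1 ± 4.87 (SD, n = 4) with siNTC, 21.1 ± 6.71 with si45, 22.1 ± 7.42 with si46 and 17.9 ± 2.39 with si47. 11 of 12 knockdown libraries lay below all controls, the exception being si46 replicate 3 at 33, where the lowest control was 31.3. No test was run on this ratio, which was given as a description.

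**Figure D3:**
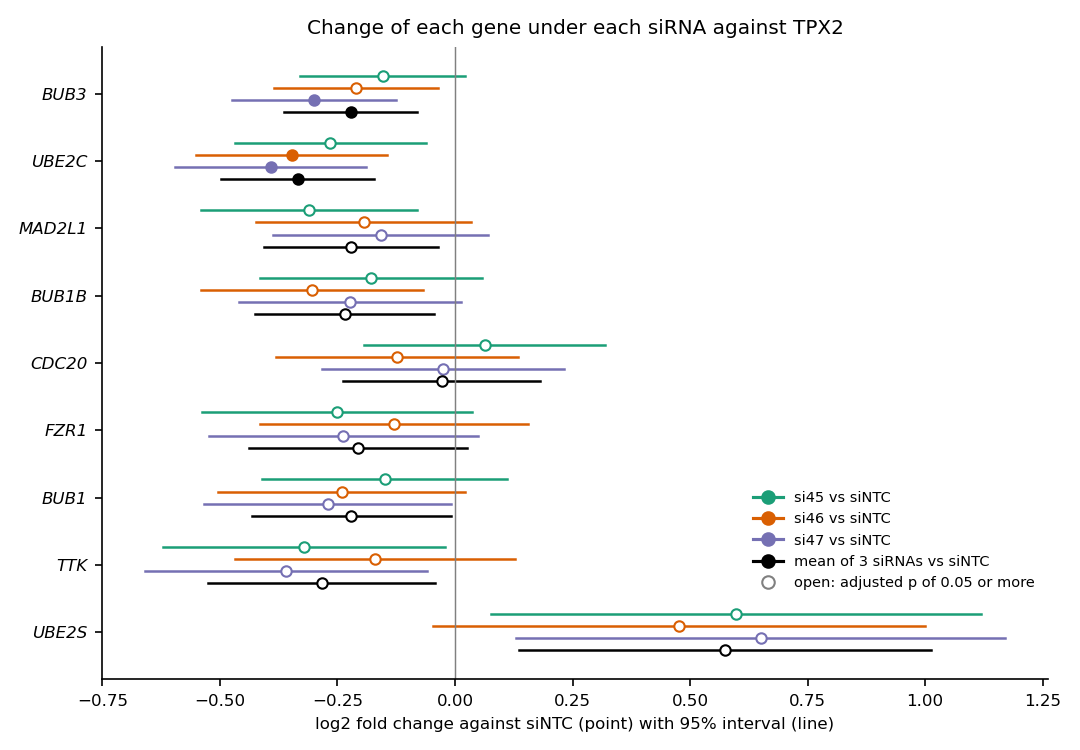
Log2 fold change against siNTC (horizontal axis) of the 9 tested genes under each siRNA and for the mean of the 3, with 95% intervals as lines, filled points for an adjusted p under 0.05 (edgeR) and open points for the rest. Filled points are UBE2C under si46, si47 and the mean (-0.35, -0.39 and -0.33) and BUB3 under si47 and the mean (-0.30 and -0.22).

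The comparisons of each siRNA with siNTC share the same 4 control libraries, so their values are given side by side and are not independent of each other. Under si45, 0 of 9 genes passed with edgeR and 0 with DESeq2, against 1.34% of all tested genes with edgeR (0.324% lower), and at an unadjusted p under 0.05, 3 were lower (5.45% of all genes) and 1 was higher (5.95%). Under si46 1 of 9 was lower, against 1.25% lower among all genes, and under si47 2 of 9 were lower, against 4.83%. In libraries that did not overlap siNTC, UBE2C was lower under si46, where 4.67% of all genes were, and UBE2C and BUB3 were lower under si47, where 6.98% were. UBE2S was higher without overlap under si47, as were 7.41% of all genes.

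The differences between siRNAs were tested directly. For the 10 genes, 0 of 9 tested passed in each of the 3 pairs with edgeR and with DESeq2, and 0 had an unadjusted p under 0.05. Of all tested genes, edgeR called 0.0282% between si46 and si45, 0.169% between si47 and si45 and 0.0493% between si47 and si46, and 4.1%, 10.4% and 7.29% had an unadjusted p under 0.05. The intervals were wide for most: for UBE2C between si47 and si45 the difference was -0.13 with a 95% interval of -0.33 to 0.08, and for UBE2S 0.05 with one of -0.45 to 0.56. So 2 genes passed under si47 and 0 under si45, but no gene of the 10 was shown to differ between these siRNAs.

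Each of the genes was then set beside the genes it works with. The lists here and below were chosen with earlier results of these data known. Their counts beside the share of all genes are descriptions, with no set test run. Of 8 checkpoint partners, all tested, 2 were lower for the mean of the 3 siRNAs and 0 were higher, against 3.53% lower among all tested genes, and their median log2 fold change was -0.21. KNL1, the kinetochore scaffold that TTK phosphorylates and that binds BUB1 and BUB3, fell by 0.41 (SE 0.0900, edgeR adjusted p = 0.00301), with 12 of 12 knockdown libraries below all controls. KNTC1, the ROD subunit of the RZZ complex that brings MAD1L1 to kinetochores, fell by 0.38 (SE 0.112, edgeR adjusted p = 0.0297). Its call was lost without siNTC replicate 2 (-0.25, edgeR adjusted p = 0.272), siNTC replicate 4, si45 replicate 1 or si47 replicate 1, and the count of partners was then 1. ZWILCH, of the same complex, was at -0.24 (edgeR adjusted p = 0.0523). Without si47 replicate 3, or with the replicate number as a block, 4 partners passed.

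Under si47, 4 of the 8 partners were lower, against 4.83% of all genes, among them KNL1 at -0.45 (edgeR adjusted p = 0.00833), KNTC1 at -0.67 (edgeR adjusted p = 0.00159) and ZWILCH at -0.40 (edgeR adjusted p = 0.00560). Under si46 KNL1 was lower, at -0.45 (edgeR adjusted p = 0.0193), where 1.25% of all genes were lower. Under si45 0 of 8 passed, and 1 was lower at an unadjusted p under 0.05, where 5.45% of all genes were. The si46 call of KNL1 was lost without any 1 of siNTC replicates 1 and 2 and si46 replicates 3 and 4, and without replicate 3 of all groups (edgeR adjusted p = 0.0501 to 0.104). None of the 3 named partners differed between siRNAs (edgeR adjusted p = 0.175 or more).

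Of the 14 core subunits of the APC/C, 13 were tested, CDC26 being the exception, with 1 lower (3.53% of all genes), 0 higher and a median log2 fold change of 0.01. CDC27, a subunit that helps to bind the coactivators, fell by 0.22 (SE 0.0649, edgeR adjusted p = 0.0324). Without a low-count filter that adjusted p was 0.0645, and without any 1 of 8 libraries (siNTC replicates 1, 3 and 4, si45 replicates 1, 2 and 4, si46 replicate 4 and si47 replicate 1) it was 0.0526 to 0.139, which left 0 of 13 subunits. ANAPC7 was at -0.19 for the mean (edgeR adjusted p = 0.159). ANAPC1, the scaffold of the complex, was at 0.29 (edgeR adjusted p = 0.417).

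Of 6 inhibitors of the APC/C and deubiquitinases that oppose it, 5 were tested, FBXO43 being the exception, with 1 lower (3.53% of all genes), 0 higher and a median of -0.13. FBXO5, which encodes EMI1, the inhibitor of the APC/C in S phase and G2, fell by 0.45 (SE 0.0989, edgeR adjusted p = 0.00330). Its mean was 82.6 ± 2.27 CPM (SD, n = 4) with siNTC, 71.2 ± 11.04 with si45, 63.8 ± 4.77 with si46 and 49.1 ± 11.9 with si47, and 11 of 12 knockdown libraries lay below all controls. The other library, si45 replicate 3, lay above them at 87.6 CPM. Under si47 FBXO5 fell by 0.75 (SE 0.126, edgeR adjusted p = 9.55e-05), and si47 against si45 gave -0.53 (edgeR adjusted p = 0.0542). MAD2L2, which holds back the coactivators, was at -0.20 (edgeR adjusted p = 0.263), and the deubiquitinase USP37 at -0.13 (edgeR adjusted p = 0.393).

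Of 22 substrates of the APC/C, all tested, 13 were lower for the mean of the 3 siRNAs and 0 were higher, where 3.53% of all genes were lower. Their median log2 fold change was -0.32. Without siNTC replicate 4 the count was 8. AURKB, the kinase of the chromosomal passenger complex, had 374 ± 36.1 CPM (SD, n = 4) in siNTC and 75.5%, 74.0% and 62.2% of that in si45, si46 and si47, a fall for the mean of 0.51 on the log2 scale (SE 0.0863, edgeR adjusted p = 0.000247). TK1, thymidine kinase, fell by 0.58 (SE 0.117, edgeR adjusted p = 0.00119), and CDC6, which loads the replicative helicase, by 0.41 (SE 0.0842, edgeR adjusted p = 0.00148).

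Securin and cyclin B1, the substrates whose loss starts anaphase, did not pass: PTTG1 was at -0.09 (edgeR adjusted p = 0.643) and CCNB1 at -0.13 (edgeR adjusted p = 0.550), both named for their role and after their values were seen. Many substrates are made in S phase or G2, and the lists of S phase genes and of other G2 and mitosis genes, each with 20 genes, all tested, stood beside them. 12 S phase genes were lower, with a median of -0.35, and 9 of the other G2 and mitosis genes, with a median of -0.18, where 3.53% of all genes were lower, and 0 of either were higher. The S phase count was 6 without siNTC replicate 3 or 4. The part of a shift in cell cycle phase in the changes of the 10 genes was not tested.

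**Figure D4:**
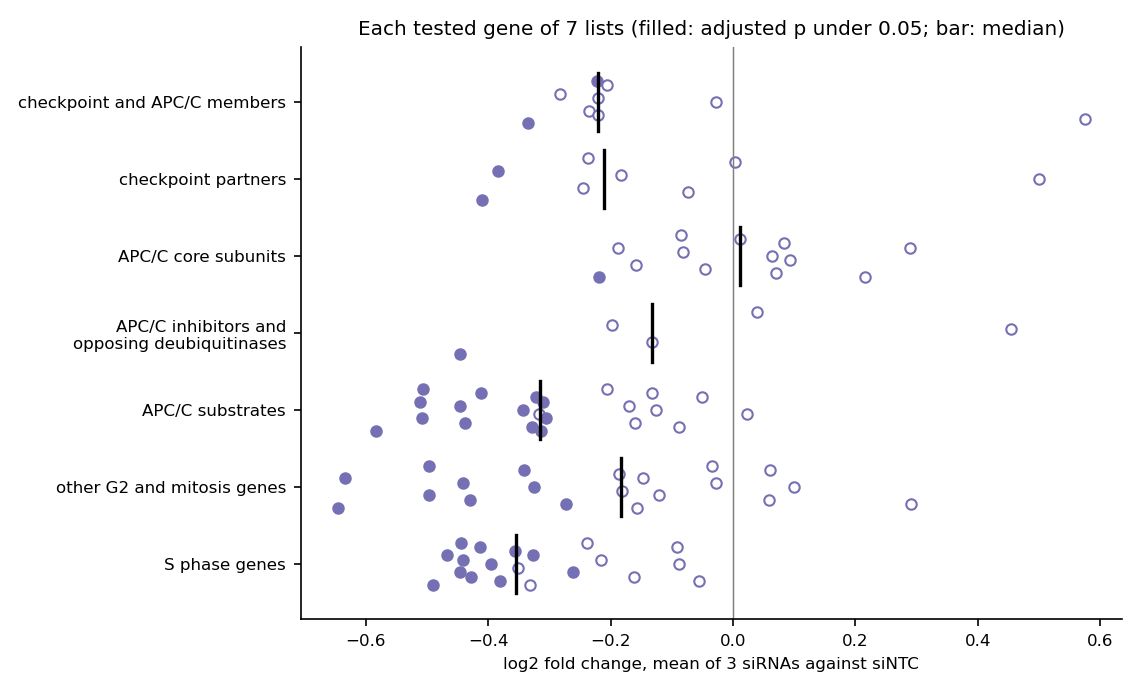
Log2 fold change for the mean of the 3 siRNAs against siNTC (horizontal axis) of every tested gene in 7 lists, with filled points for an adjusted p under 0.05 (edgeR) and a bar at each list's median. The medians are -0.22 for the checkpoint and APC/C genes, 0.01 for the core subunits, -0.32 for the substrates and -0.35 for the S phase genes.

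By siRNA, the substrates that passed numbered 0 under si45, 5 under si46 and 14 under si47, where 0.324%, 1.25% and 4.83% of all genes were lower. Their medians were -0.22, -0.29 and -0.39. At an unadjusted p under 0.05, 12 were lower under si45, where 5.45% of all genes were. DESeq2 called 1 under si45. The si45 count was 1 to 4 with the replicate block, without a low-count filter, with only the groups compared, or without siNTC replicate 1, si45 replicate 3, si47 replicate 1 or si47 replicate 3. The si46 count ran from 0 (without siNTC replicate 4 or si46 replicate 2) to 10 (with the block, or with only the groups compared). Summed over the list, the substrates held 5560 to 5964 CPM with siNTC, 4471 to 5234 with si45, 4260 to 5023 with si46 and 3859 to 5001 with si47, so that no knockdown library reached the control range. CENPF, a kinetochore protein named after its values were seen, made up most of this sum, with 3268 ± 77.0 CPM (SD, n = 4) in siNTC and 2537 ± 258 in si47. The other 21 substrates summed to 2324 to 2627 CPM with siNTC, 1932 to 2244 with si45, 1875 to 2140 with si46 and 1660 to 2179 with si47, again with no overlap.

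RRM2, the small subunit of ribonucleotide reductase, was the only gene of the 4 lists that passed between 2 siRNAs. Its mean was 214 ± 25.5 CPM (SD, n = 4) with siNTC, 198 ± 12.9 with si45, 175 ± 19.3 with si46 and 144.5 ± 21.1 with si47, and fell by 0.32 for the mean (SE 0.0817, edgeR adjusted p = 0.0114). Without siNTC replicate 3 or 4 that mean no longer passed (edgeR adjusted p = 0.107 and 0.0525). si47 against si45 gave -0.46 (SE 0.103, edgeR adjusted p = 0.04997). That call lay at the threshold: it was lost with upper-quartile scaling (adjusted p = 0.0565), with only the 2 groups compared (0.105), and without any 1 of 10 of the 16 libraries, namely siNTC replicates 1 and 4, si45 replicates 2, 3 and 4, si46 replicates 1 and 4, and si47 replicates 1, 2 and 4 (edgeR adjusted p up to 0.173).

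For each of the 9 tested genes, the most similar gene outside the 10 was sought among 11797 genes with a mean of at least 20 counts. It was the 1 whose log2 CPM, centred on its mean, differed least over the 16 libraries, as a root mean square difference. These differences are descriptions, in which all genes share libraries and depth. For UBE2C it was KIF23, the kinesin of the central spindle, at 0.109. For BUB3 it was CTDNEP1 at 0.0685, for FZR1 the ubiquitin ligase G2E3 at 0.122 and for TTK the kinase WNK2 at 0.153. CDC20 lay nearest COPS8, a subunit of the COP9 signalosome, at 0.104, MAD2L1 nearest MPST at 0.128, BUB1 nearest AGAP1 at 0.105, BUB1B nearest HACD2 at 0.108 and UBE2S nearest FAM204A at 0.196. As the 10 genes were left out of the candidates, whether they lay nearest each other was not examined.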

How the data were processed

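RNA from 16 libraries was used. Per the labels, RNA was taken with a column kit and DNase, and libraries were made with a QuantSeq 3' end kit and 15 PCR cycles and read single-end. The authors deposited raw read counts per Ensembl gene, whole numbers with no normalization. The submitters' processing notes name FastQC 0.11.7, STAR 2.7.2b, edgeR 3.36.0, limma 3.50.3 and GRCh38, with no roles. Annotation, counting mode, strand, multi-mapped reads and molecular identifiers are not given in the sources used here, so reads of gene copies and of overlapping genes could have been split or shared. The floor of 3 counts given for a count of 0 covers counting error only.

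Each column carries the siRNA and replicate number of 1 sample. Counts were filtered with filterByExpr (minimum count 10, minimum total 15), scaled by TMM and fitted in edgeR 4.0.16 (R 4.3.3) with a robust quasi-likelihood model in which all 16 libraries share a spread and each group has a mean. Each siRNA and their mean were compared with siNTC, and the siRNAs with each other, with Benjamini-Hochberg adjustment over 14193 genes. SE was the size of a log2 fold change over the square root of F, with 95% intervals from the t distribution. CPM uses TMM library sizes. Symbols came from a gene name table (58434 identifiers), positions from GENCODE v29, and promoters from RefSeq.

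Within groups, 24 pairs of libraries differed by 4.36 to 9.80 in chi-square per degree of freedom, so none was a duplicate. The genes and the 6 lists beside them were chosen with earlier results of these data known. The text names the 10 genes, TPX2, from each of 4 lists the 3 genes with the lowest p for the mean contrast and any gene past the threshold between 2 siRNAs, and for each of the 10 its nearest gene. Names outside this rule are marked or belong to overlapping genes and pseudogenes. Alternatives tried were DESeq2 1.42.0, RLE and upper-quartile factors, 2 other low-count filters, only the groups compared, the replicate block, a threshold of 0.01 and leaving out each library. Added after seeing the data were pseudogene counts joined to their parents, leaving out replicate 3 of all groups, the summed substrates without CENPF, and the alternatives for TPX2, for other named genes and for substrates by siRNA.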

Additional observations from a re-analysis of the deposited data

Results flagged for a closer look

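In 104 groups of 4 libraries, covering total counts, named genes and count ratios, a library was picked out when its gap to the nearest of the others, as a share of the group's range, exceeded Dixon's 95% critical value. 8 were picked out, where chance gives about 5.2 (1 in 20). For FZR1 this was si47 replicate 3 with 57.5 CPM (others 34.4 to 34.7), and for TPX2 it was si45 replicate 3 with 121.0 CPM (others 79.4 to 85.1). FBXO5 was high in replicate 3 of both si45 (87.6 CPM, others 63.5 to 67.0) and si47 (66.9 CPM, others 42.7 to 44.1). USP37 had 87.7 CPM in si46 replicate 3 (others 73.0 to 73.7). ZWILCH in si46 replicate 1 was at 178.5 CPM (others 151.7 to 155.7), and KNTC1 in si45 replicate 2 at 46.6 CPM (others 34.4 to 36.4). CDC6 in siNTC replicate 2 was low at 87.9 CPM, against 101.8 to 103.1.

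RRM2 differed between siRNAs in the direct test, with a log2 fold change of -0.457 for si47 against si45 (edgeR adjusted p = 0.04997), a call that was lost without any 1 of 10 of the 16 libraries.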

How the results depend on the processing

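For the 10 genes, the count for the mean contrast was 2 and became 1 with upper-quartile factors, no low-count filter, a minimum of 10 in every library, or a threshold of 0.01. For si46 it was 1 and became 0 with that minimum or at 0.01, and for si47 it was 2 and became 1 at 0.01. Leaving out 1 library, or replicate 3 of all groups, gave 0 for si45, 0 to 1 for si46, 0 to 4 for si47 (4 without replicate 3), 0 to 2 for the mean and 0 for each pair. It gave 1 to 4 partners, 0 to 1 core subunits (0 also with no low-count filter), 1 inhibitor, 8 to 13 substrates, 6 to 15 S phase genes and 7 to 9 other G2 and mitosis genes.

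The replicate number was also fitted as a block. Deviations of same-numbered libraries correlated over 0.1 in all 4 pairs for si45 and si47 (r = 0.120 to 0.242). They did so in 3 of 4 pairs for si45 and si46 and for si46 and si47. With siNTC the number was 2 of 4 for si45 and 1 of 4 for each of si46 and si47. The lowest r of any pair was 0.0188, for siNTC and si47. These values are a hint of pairing from the data, as the labels give none. With the replicate block the 10 genes gave 3 calls for the mean and 1 for si45, with MAD2L1 among them in both, the partners gave 4, and all tested genes gave 577, 1073, 2198 and 1817 for si45, si46, si47 and the mean and 33, 398 and 108 for si46 against si45, si47 against si45 and si47 against si46. FZR1 in si47 against si45 turned from 0.01 to -0.000158 with the block.

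Without the block, all tested genes gave 190, 482, 1382, 1014, 4, 24 and 7 calls in that order. With no low-count filter si45 gave 356 and the pairs gave 14, 166 and 44. With DESeq2 these 4 were 292, 13, 153 and 45, and si47 against si46 gave 4 with only the groups compared. At a threshold of 0.01 si45, si46, si47 and the mean gave 96, 189, 673 and 440, and si47 against si45 gave 8. Without replicate 3 of all groups si45 gave 379 and si47 against si45 gave 77. Leaving libraries out gave 97 to 406, 252 to 623, 932 to 1664, 629 to 1388, 4 to 7, 10 to 147 and 2 to 23.

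Among the 10 genes and TPX2, the values that turned sign had not passed the test. Adding pseudogene counts turned CDC20 under si45 to -0.00372. When libraries were left out, CDC20 ran from -0.048 to 0.14 under si45, -0.10 to 0.075 under si47 and -0.062 to 0.021 for the mean. Between si46 and si45, TPX2 ran from -0.24 to 0.0020, MAD2L1 from -0.019 to 0.22 and UBE2S from -0.26 to 0.12. Between si47 and si45, CDC20 ran from -0.17 to 0.028, FZR1 from -0.21 to 0.11, BUB1B from -0.18 to 0.024, TTK from -0.10 to 0.067 and UBE2S from -0.054 to 0.14. Between si47 and si46, MAD2L1 ran from -0.017 to 0.10, BUB1 from -0.11 to 0.074, BUB1B from -0.056 to 0.15, UBE2C from -0.11 to 0.034 and UBE2S from -0.012 to 0.31. Without replicate 3 of all groups, FZR1 was at -0.12 and BUB1B at 0.01 between si47 and si45.

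Ratios of summed counts lay within 1 SD of the mean ratios, at 1.14, 1.42, 1.15 and 1.33 for CDC20 to FZR1 and 36.5, 20.05, 20.8 and 17.9 for UBE2C to UBE2S in siNTC, si45, si46 and si47. A ratio of MAD2L1 to MAD1L1 was not run, as MAD1L1 was at 0 in most libraries. No scaling moved the median of all genes by more than 0.0041. The cause of these changes was not tested. At 25 to 56 counts, UBE2S did not pass at this depth in any comparison except with pseudogene counts added.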
